A study of Mus musculus with 3 samples.

Results

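Genes that were counted in the library labelled ESC and in neither MEF library were examined by tissue and gene class. A gene was taken when its expected count, rounded to a whole number, was 0 in both the OG2 and the ICR MEF library and at least 10 in the R1 ESC library. Symbols that begin with Krt or Cldn, and Aldh3a1, Pou5f1 and Epcam, were left out. The rule was met by 113 genes, which is 0.634% of the 17810 genes that had a count in any of the 3 libraries and 1.25% of the 9026 genes with 10 or more counts in the ESC library. The tables list 29267 genes in all. Since the rule uses the counts themselves, the counts, levels and fold bounds of these 113 genes are a description and were not tested.

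The study compared mouse embryonic fibroblasts (MEFs), the cells from which reprogramming starts, with embryonic stem cells (ESCs), its reference end point. For RNA-seq the study's methods name a TruSeq RNA Sample Preparation Kit. There was 1 library each from MEFs of the OG2 strain and MEFs of the ICR strain, both at passages 3 to 5. Another 1 came from ESCs of the R1 line at passage 30 that were labelled naive. The Oct4-GFP transgene of OG2 mice marks pluripotent cells, and no treatment is given for any of the cells. Whether the MEFs of a strain came from 1 embryo or a pool is not given in the sources used here. The depth, as the sum of expected counts, was 5149312 for OG2 MEFs and 4590619 for ICR MEFs but 1717838 for the ESC library, so a gene had to stay at 0 in the deeper libraries. A level of 3 counts corresponds to 0.583, 0.654 and 1.75 counts per 1000000 (CPM) in the same order, and to 0.308 CPM over both MEF libraries together. Every fold below is a lower bound against those 3 counts over both MEF libraries. At the minimum of 10 counts the ESC level was 5.82 CPM, with an exact Poisson interval at 95% of 4.80 to 18.4 counts, and the bound was at least 18.9-fold. Such intervals cover counting error only, and there is no second ESC library.

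ESCs self-renew under a transcription factor network around Oct4 (Pou5f1), Nanog and Sox2, and naive ESCs also depend on factors such as Esrrb, Tfcp2l1 and Klf2. They give rise to all tissues of the embryo, and genes of differentiated tissues are mostly silent or weakly expressed in them. Fibroblasts are mesenchymal cells that secrete collagens and fibronectin and lack epithelial junctions. The label of the ESC library was checked against 30 pluripotency markers. In that library 13 of them reached 10 counts and 14 were at 0, among them Zfp42, Esrrb, Dppa5a, Dppa3, Lin28a and Utf1. The summed level of the 30 markers was 256 CPM in the ESC library, against 58.6 CPM in OG2 MEFs and 70.1 CPM in ICR MEFs. Of the 256 CPM, 64.6 CPM lay in Pou5f1, Fgf4, Gdf3 and Sall4, which are at 0 in both MEF libraries by the count rule. The other markers summed to 191 CPM in the ESC library, against the same MEF sums. Pou5f1, which was left out by its symbol, had 71 counts in the ESC library and 0 in both MEF libraries. Nanog had 51 counts in the ESC library, 2 in OG2 MEFs and 0 in ICR MEFs. Other markers of the list went the opposite way, with 2 counts of Klf2 in the ESC library against 63 and 91 in OG2 and ICR MEFs, and 17 counts of Jam2 against 67 and 89. The ESC library was less deep, which widens these gaps in counts. As deposited TPM, a level scaled by depth and gene length, Klf2 was at 0.6 against 13.4 and 22.6. Jam2 was at 3 against 9.82 and 21.4. The 20 fibroblast markers summed to 5628 CPM in the ESC library, against 49830 CPM in OG2 MEFs and 52870 CPM in ICR MEFs. Of these, 17 reached 10 counts in the ESC library and none was at 0, with 3227 counts for the intermediate filament Vim and 1155 for the collagen Col1a1. The counts go against the label in the 14 pluripotency markers at 0, so the library is named by its label throughout.

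In all, the 113 genes held 5606 counts, or 0.326% of the counts of the ESC library. Their counts ran from 10 to 654 with a median of 20, and 54 of them had fewer than 20 counts. The 10 highest genes held 49.96% of the counts of the set. The median of the deposited TPM, a level scaled by gene length, was 7.62, against 11.8 for the 8913 other genes with 10 or more counts. The median fold bound was at least 37.8-fold. Most of these genes were thus weakly counted, and a small number of genes carried the set.

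**Figure D1:**
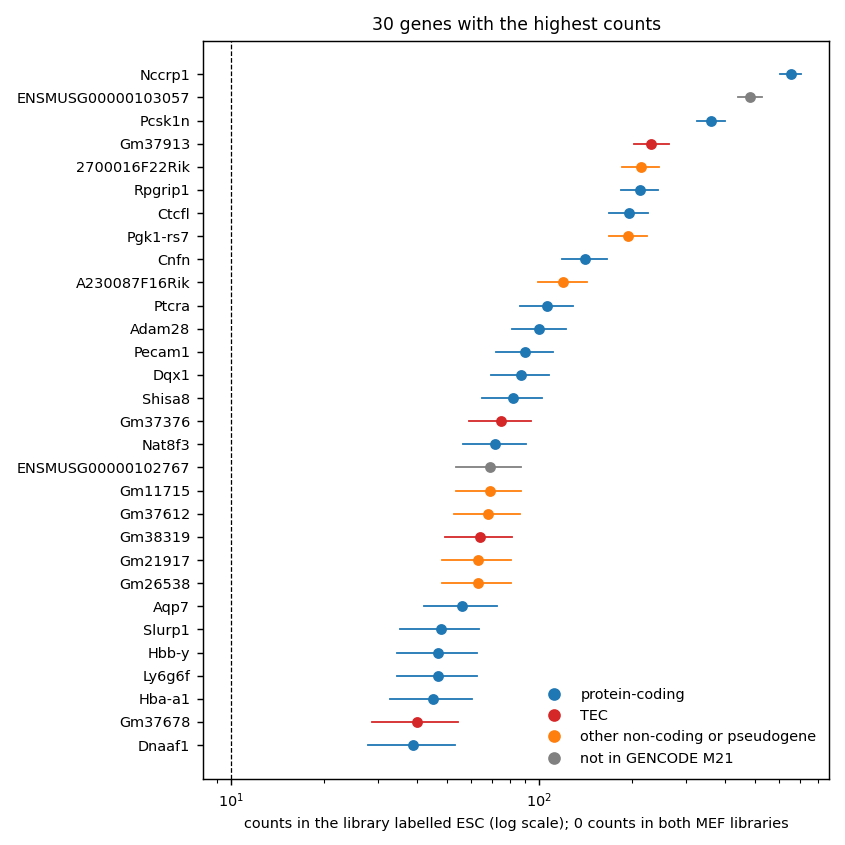
The 30 genes with the highest counts among those found in the library labelled ESC and at 0 in both MEF libraries, with the rounded count in the ESC library on a log axis. Points are counts of 1 library, bars are exact Poisson intervals at 95%, colours are GENCODE M21 biotypes and the dashed line is the minimum of 10 counts. Nccrp1 has the highest count, 654, and 12 genes reach 100 counts.

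Of the 113 genes, 60 (53.1%) are annotated as protein-coding, 21 (18.6%) as TEC, which marks transcripts that still await experimental evidence, 11 (9.73%) as lincRNA, a long RNA between coding genes, and 10 (8.85%) as antisense RNA. A further 3 are sense intronic RNAs, 2 are processed pseudogenes and 1 is a processed transcript, while 5 identifiers were not matched in GENCODE M21. By comparison, 95.8% of the 8913 other genes with 10 or more ESC counts are protein-coding, and 0.684% are TEC. The set therefore held a lower share of coding genes than the rest of the library. Read the other way, the rule was met by 0.698% of the 8601 coding genes with 10 or more ESC counts, 25.6% of 82 TEC genes, 11% of 100 lincRNA genes and 11.8% of 85 antisense genes. It was also met by 42.9% of 7 sense intronic genes, 5.71% of 35 processed pseudogenes, 1.61% of 62 processed transcripts and 12.5% of 40 unmatched identifiers. In the opposite direction, 500 genes (2.81%) had 0 counts in the ESC library and 10 or more in both MEF libraries, and 91.4% of these are coding. The ESC library was less deep, so 0 counts there allow a higher level than in MEFs. The 500 and 113 genes are thus not directly comparable in number. Between the MEF libraries, 18 genes (0.101%) had 10 or more counts in OG2 MEFs and 0 in ICR MEFs, and 26 (0.146%) had 10 or more in ICR MEFs and 0 in OG2 MEFs. The MEF pair shows how often such a pattern appeared between libraries with the same label, at a greater depth and across strains. It asks for 0 in 1 library only, and 10 counts are a lower level in the deeper MEF libraries. Against ICR MEFs alone 163 genes met the ESC rule, and against OG2 MEFs alone 185.

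**Figure D2:**
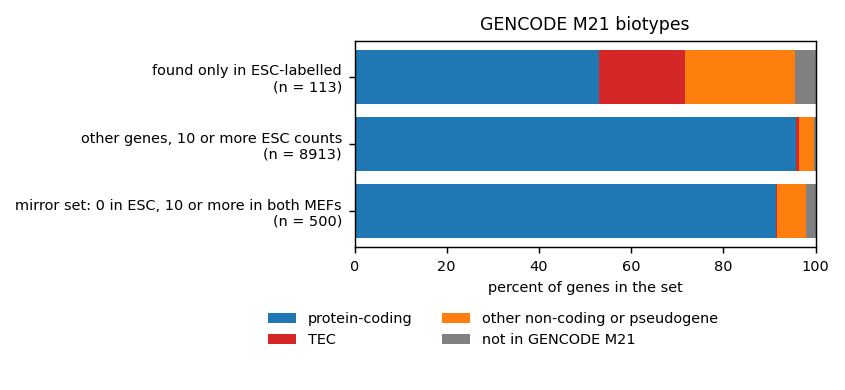
Percent of genes by GENCODE M21 biotype in the 113 genes found in the library labelled ESC and at 0 in both MEF libraries, in the other 8913 genes with 10 or more counts there, and in the 500 genes of the opposite pattern. Coding genes take 53.1%, 95.8% and 91.4% of the bars.

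The 60 coding genes were grouped by the site where each is best known to be expressed. The grouping was made by hand from textbook knowledge after the counts had been seen, and 14 genes were not assigned. In bulk RNA, more cells of a type and more RNA per cell cannot be told apart. Barrier epithelium gave 7 genes with 29.3% of the counts of the coding genes, and neural, endocrine and sensory tissue gave 9 genes with 24.4%. Blood and vessel genes followed with 10.8%, germ line and cilia genes with 9.19%, genes of gut, liver, kidney and fat with 7.48%, and muscle genes with 2.23%. The 7 genes of pluripotency and the early embryo held 3.48%, and 2 trophoblast genes held 0.710%. The coding genes of the set therefore came from many textbook sites, and its early embryo genes held a small part of their counts. That part depends on the rule and the grouping. Pou5f1 (71 counts) was left out by its symbol, and Tdh (73), Nanog (51) and L1td1 (34) missed the rule with 1 or 2 MEF counts. Pecam1 (90 counts), also known from mouse ESCs, was placed with blood and vessel genes.

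**Figure D3:**
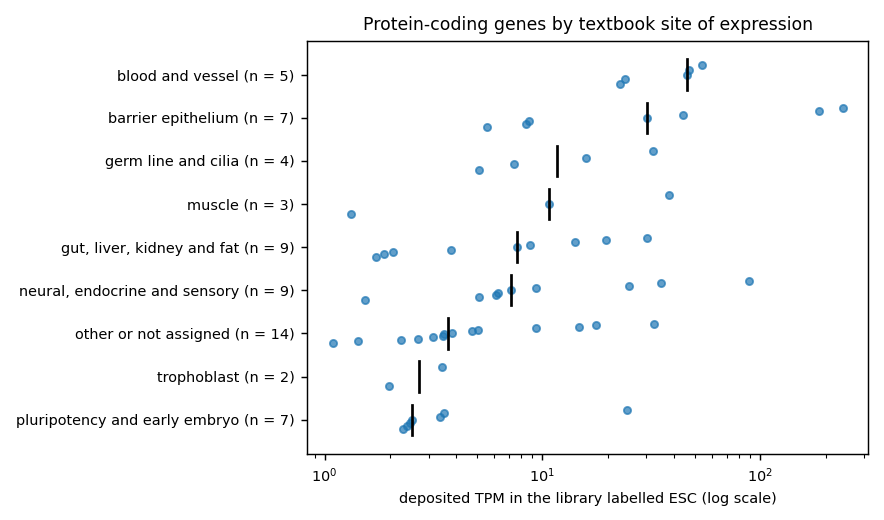
Deposited TPM in the library labelled ESC, on a log axis, of the 60 protein-coding genes by textbook site of expression. Each point is a gene in 1 library and each black line is the median of its group. The medians run from 2.52 for pluripotency and early embryo to 46.1 for blood and vessel.

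The pluripotency and early embryo genes were at the low end. Platr17, annotated as a coding gene and named for a transcript associated with pluripotency, had 32 counts. Sall4, a zinc finger factor of the pluripotency network, had 16 counts with an interval of 9.15 to 26.0. Fgf4, the growth factor through which ESCs drive their own differentiation, had 14 counts. Gdf3, a TGF-beta family ligand of early embryos, and Zscan10, a zinc finger factor of ESCs, had 10 counts each. Kpna7, an importin of the oocyte and early embryo, had 16 counts, and Trim43b had 10. The median TPM of these 7 genes was 2.52, and 3 of them sat exactly at the minimum count. Among the non-coding genes, Platr1 (18 counts) and Panct2 (10 counts) also carry names given for pluripotency. The trophoblast factors Elf5, with 12 counts, and Ascl2, with 10 counts, were as low.

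Barrier epithelium held the gene with the highest count of the set. Nccrp1 (chr7:28543596-28547254, minus strand), an F-box associated protein of squamous epithelia, had 654 counts with an interval of 605 to 706 and was at least 1236-fold higher. Cnfn (chr7:25367620-25369724, minus strand), which encodes cornifelin of the cornified envelope, had 141 counts with an interval of 119 to 166. On the TPM scale Nccrp1 was at 239 and Cnfn at 185, and between them lay only ENSMUSG00000103057, an identifier without a match in GENCODE M21, at 234. Slurp1, a secreted Ly6 protein of keratinocytes, had 48 counts, and Lypd2, a related gene 4212 bases from it on chromosome 15, had 22. Ehf, an epithelial ETS factor, had 18 counts, Ly6g6c had 14 and the beta-defensin Defb1 had 12. Of the epithelial genes left out by the rule, Aldh3a1, an aldehyde dehydrogenase of cornea and stomach, had 1845 counts, Krt17 had 65, Krt6a 28, Krt16 27 and Epcam 11. Krtdap, which is no keratin but was removed by its first letters, had 26 counts. All of these were at 0 in both MEF libraries.

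Neural, endocrine and sensory genes were led by Pcsk1n (chrX:7919822-7924410, plus strand), the precursor of an inhibitor of prohormone convertase, with 360 counts and a TPM of 89.2. Rpgrip1 (chr14:52110704-52163546, plus strand), a protein of the photoreceptor connecting cilium, had 212 counts. Shisa8, an auxiliary subunit of AMPA receptors, had 82 counts. Pou1f1, the pituitary POU factor, had 28, Slc1a7, a glutamate transporter of the retina, had 21, and Phox2a, a homeobox factor of autonomic neurons, had 18. Sox21 and Prima1 had 11 and 10 counts. Here 3 genes carried most of the counts and the others lay near the minimum.

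Blood and vessel genes were few but evenly counted, from 45 to 106 counts. Ptcra, the pre-T cell receptor alpha chain of thymocytes, had 106 counts. Pecam1 (CD31), an adhesion molecule of endothelium that is also known from mouse ESCs, had 90. Hbb-y, the embryonic beta-like globin, had 47 counts and Hba-a1, an adult alpha-globin, had 45. Ly6g6f, a gene of platelets, had 47 counts. Hba-a1 shares 75.4% of its 31-base words with Hba-a2, which had 5 counts in the ESC library and 0 in both MEF libraries.

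Ctcfl (chr2:173093609-173119525, minus strand), the germ line paralogue of the insulator protein Ctcf, had 195 counts and a TPM of 32.3. Dnaaf1, which assembles dynein arms of motile cilia, had 39 counts, Selenov, a selenoprotein of testis, had 29, and Cntd1, a meiotic crossover factor, had 22. Cntd1 had 66.6% of its 31-base words elsewhere, mostly in Becn1, whose exons overlap it on the opposite strand. For Becn1 the ESC library held 209 counts (122 CPM), and the OG2 and ICR libraries held 445 and 428 (86.4 and 93.2 CPM). The part of Becn1 reads in the 22 counts was not tested. Among genes of gut, liver, kidney and fat, Nat8f3, of the N-acetyltransferase 8 family, had 72 counts, and Aqp7, an aquaglyceroporin, had 56. Cyp2e1, a liver cytochrome P450, had 25 counts, Pga5, a pepsinogen, had 22, Lgals4, an intestinal galectin, had 14, and Ahsg and F10, plasma proteins from liver, had 10 each. The muscle genes were Msc with 31 counts, Tnni3, the cardiac troponin I, with 24, and Mylk4 with 14. These groups thus held single genes of unlike tissues at low counts. Among the unassigned genes, Adam28, a metalloproteinase-disintegrin, had 100 counts and Dqx1, a putative RNA helicase, had 87.

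The same genes were then read against 23 lists of tissue markers, of which 9 held at least 1 of the 113 genes. In all 15 of the genes were in a list and 98 were in none. Pluripotency gave 3 of 30 measured markers (Fgf4, Gdf3, Sall4), trophoblast 2 of 20, stratified squamous epithelium 2 of 36 (Nccrp1, Cnfn), liver 2 of 21 (Cyp2e1, Ahsg) and erythroid cells 2 of 17 (Hba-a1, Hbb-y). Glandular and airway epithelium gave 1 of 25 (Ehf), intestine 1 of 20 (Lgals4), striated muscle 1 of 27 (Tnni3) and endothelium 1 of 10 (Pecam1). None was found among 17 markers of 2-cell-like cells, 18 of primed epiblast and early germ layers, 25 of the male germ line, 15 of oocytes, 8 of mammary gland, 12 of stomach, 16 of pancreas, 15 of kidney, 30 of neurons, 12 of glia, 23 of retina and lens, 22 of lymphocytes, 19 of myeloid cells and 20 of fibroblasts. Over all lists 15 of 458 measured markers met the rule (3.28%), against 0.386% of all 29267 genes listed. Among markers with 10 or more ESC counts it was 15 of 78 (19.2%), against 1.25% of all 9026 such genes. The lists were chosen with earlier results of these data known, so the difference is a description and was not tested. Most lists were made for cell types whose genes fibroblasts mostly lack, and no list gave more than 3 genes.

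The other markers of the same lists were read beside these genes. For liver, 16 of 21 markers were at 0, among them Alb and Hnf4a, and Ttr had 1 count. For erythroid cells 11 of 17 were at 0, Gata1 among them. For endothelium 3 of 10 were at 0 (Cdh5, Kdr and Sox18), while Kdr had 61 counts in OG2 MEFs and 54 in ICR MEFs. For squamous epithelium 21 of 36 were at 0, among them Trp63, Ivl and Flg. The squamous list summed to 586 CPM in the ESC library, of which 478 CPM lay in Nccrp1, Cnfn and Krtdap, which had 0 counts in both MEF libraries by the rule, Krtdap having been left out by its symbol. Its other markers summed to 108 CPM, against 12.2 CPM in OG2 MEFs and 11.8 CPM in ICR MEFs. Most of their counts lay in Sbsn, with 112 in the ESC library, 48 in OG2 MEFs and 40 in ICR MEFs. Pkp1 had 32 and Tgm1 had 30 counts in the ESC library, and none of the rest had more than 3. Of glandular and airway markers 8 of 25 were at 0. Those outside the set summed to 299 CPM against 4.66 and 10.02 CPM, with Wfdc2 at 330 counts in the ESC library, 0 in OG2 MEFs and 2 in ICR MEFs. Retina and lens markers gave no gene of the set yet had the highest summed level after fibroblast markers, 664 CPM against 11.5 and 10.7 CPM. The photoreceptor arrestin Sag made up most of that sum, with 969 counts in the ESC library, 10 in OG2 MEFs and 17 in ICR MEFs, while 18 of the 23 markers, Crx and Nrl among them, were at 0. Striated muscle markers were at 0 in 13 of 27 cases and summed to 75.1 CPM in the ESC library, below 197 CPM in OG2 MEFs and 114 CPM in ICR MEFs. Neuron markers, none of them in the set, summed to 323 CPM against 83.7 and 83.0 CPM, and 11 of 30 were at 0. Stmn2 held 254 CPM of that sum, with 436 counts in the ESC library, 315 in OG2 MEFs and 269 in ICR MEFs. Camk2a went the other way, with 1 count in the ESC library, 23 in OG2 MEFs and 29 in ICR MEFs. The part of other cell types in these values was not tested.

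**Figure D4:**
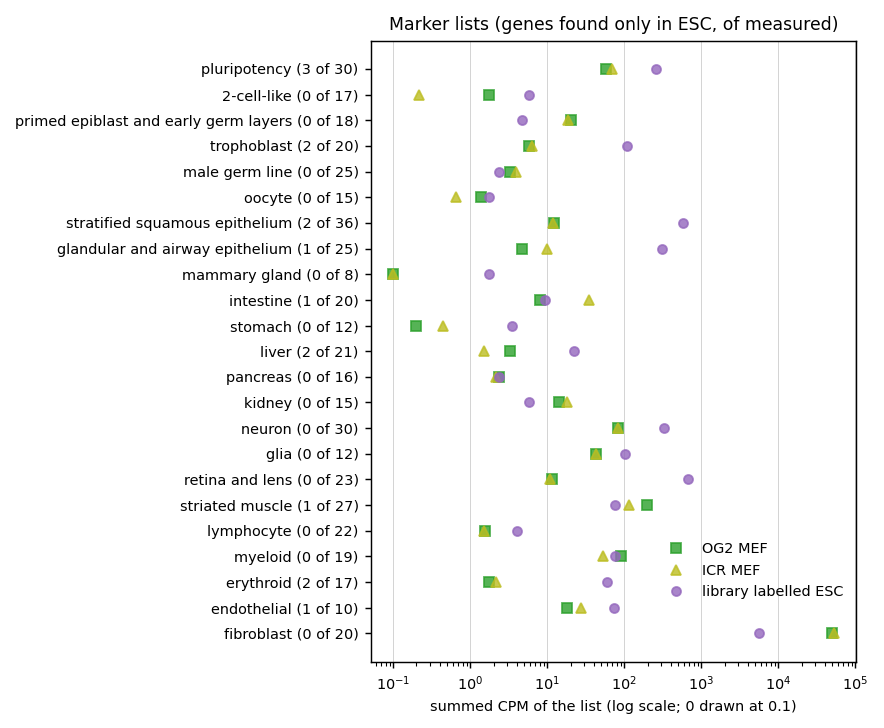
Summed CPM of 23 marker lists, on a log axis, in OG2 MEFs (squares), ICR MEFs (triangles) and the library labelled ESC (circles), 1 library each, with 0 drawn at 0.1. Labels give how many markers meet the rule of how many measured. Retina and lens (664 CPM, with 564 CPM in Sag) and neuron (323 CPM, with 254 CPM in Stmn2) lie above both MEF libraries. So does squamous epithelium (586 CPM, of which 478 CPM in genes at 0 in MEFs by the rule). Glandular epithelium (309 CPM, with 192 CPM in Wfdc2) also lies above both, and fibroblast markers (5628 CPM) lie below both.

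By gene class, symbols of the predicted Gm series made up 43 of the 113 genes (38.1%) and Rik clone symbols 6 (5.31%), against 3.42% and 2.03% of the 9026 genes with 10 or more ESC counts. Among 375 solute carriers 3 met the rule (Slc1a7, Slc5a9, Slc13a3). The homeobox, Fox, Sox and Pax factors gave 2 of 226 (Pou1f1, Sox21), the zinc finger genes 1 of 418 (Zscan10), the cytochromes P450 1 of 102 (Cyp2e1) and the defensins 1 of 64 (Defb1). No gene came from the other 14 of 21 classes, including the 1365 olfactory, vomeronasal and taste receptors. These counts of 1 to 3 genes stand beside 0.386% of all 29267 genes in the tables and are too small to set a family apart.

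The 48 annotated genes outside the coding class had a median of 21 counts and held 1911 counts, or 0.111% of the library. Gm37913, a TEC gene on chromosome 3, had 231 counts. The lincRNA 2700016F22Rik had 213, the antisense RNA A230087F16Rik had 119 and the TEC gene Gm37376 had 75. The unmatched identifier ENSMUSG00000103057 had 482 counts and was second in the set. Of these 48 genes 40 (83.3%) overlap another gene of the tables and 26 (54.2%) have a single exon, against 56.1% and 36.2% of 337 other non-coding genes with 10 or more ESC counts. TEC genes make up 21 of the 48 but 61 of the 337, and all 21 have a single exon. The part of this mix of biotypes in the shares given here was not tested. Exons overlapped in 17 of the 48 (35.4%, against 38.0%), so 23 of the 40 shared no annotated exon with the gene they overlap. Of the 48, 33 (68.8%, against 39.8%) overlap a gene with 10 or more counts in both MEF libraries, 17 on the same strand and 16 on the opposite strand. The counting is not stated to use strand, so where exons on opposite strands overlap, reads of the 2 genes cannot be told apart. Of the coding genes, 7 (11.7%, against 18.9% of other coding genes) overlap such a MEF-expressed gene, all on the opposite strand. Rpgrip1 has 1001 of its 12570 words in Supt16, Slurp1 292 of 2931 in Them6 and Dnaaf1 554 of 2791 in Taf1c. The part of reads of the overlapped genes in these counts was not tested.

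In several places where the non-coding genes overlap another gene, the overlapped coding gene was low in the ESC library. Cdc42bpb, which A230087F16Rik overlaps, was at 231 CPM in OG2 MEFs and 240 CPM in ICR MEFs but at 8.73 CPM with the ESC label, where A230087F16Rik was at 69.3 CPM. Qrich1 was at 95.7, 118 and 10.5 CPM in the same order, beside 23.3 CPM for the TEC gene Gm37678. Mecom was at 44.5, 44.2 and 4.66 CPM, beside 16.9 CPM for the TEC gene Gm38197. Across all 33 the overlapped gene was lower in the ESC library than in both MEF libraries in 18 cases, or 54.5%, against 67.2% of the 11521 genes with 10 or more counts in both MEF libraries. The overlapped genes as a whole were therefore not lower more often than that background. Cdc42bpb, Qrich1 and Mecom were chosen after their values had been seen.

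TEC genes as a class were higher in the ESC library. The 1154 TEC genes in the tables summed to 6367 CPM in the ESC library, against 303 CPM for OG2 MEFs and 516 CPM for ICR MEFs, of which the 21 genes of the set held 423 CPM. Antisense genes summed to 4684 CPM against 780 and 981 CPM, and sense intronic genes to 437 CPM against 27.8 and 46.2 CPM. The gene with the highest count held 231 of the 437 CPM of sense intronic genes (Gm37214), 1255 CPM of TEC genes (Gm37158) and 796 CPM of antisense genes (Gm12953), and without it the sums were 206, 5112 and 3888 CPM. Protein-coding genes summed to 922863 CPM against 970585 and 972180 CPM. The non-coding genes of the set were thus a small part of classes whose summed level was higher in the ESC library. Chromosome 1 held 20 of the 113 genes, of which 15 were TEC, and it also held 472 of the 1154 TEC genes in the tables and 41 of the 82 with 10 or more ESC counts. Genes of the set seldom lay side by side. Slurp1 and Lypd2 were neighbours on chromosome 15, Trim43b and 4930579C12Rik were neighbours on chromosome 9, and no 3 genes followed each other.

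RSEM divides a read among the genes that it matches, so the counts of genes with near-identical copies are uncertain. The ESC count was not whole for 70 of the 113 genes (61.9%), against 25.1% of the other genes with 10 or more ESC counts. Among coding genes the shares were 45% and 22.98%, and among non-coding genes 79.2% and 74.5%. At least 50% of the 31-base words of a gene were found in another gene for 5 coding genes (8.33%, against 2.25%) and 14 non-coding genes (29.2%, against 19.3%). The processed pseudogene Pgk1-rs7, with 194 counts, had all of its 1225 words in Pgk1, which had 4739 counts in OG2 MEFs, 3993 in those of ICR and 804 with the ESC label. Gm37376 had 344 of its 423 words in Malat1, a long nuclear RNA with 1287, 1360 and 397 counts in the same order (250, 296 and 231 CPM). Counts of these partner genes come from libraries of unequal depth. Gm37913 had 98.1% of its words elsewhere, mostly in Gm37245, which had 4, 1 and 0 counts. Nat8f3 had 55.7% of its words elsewhere, mostly in Nat8f7, which had 8 counts in the ESC library and 0 in both MEF libraries. By contrast Nccrp1, Cnfn, Shisa8 and Hbb-y had no word in another gene.

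**Figure D5:**
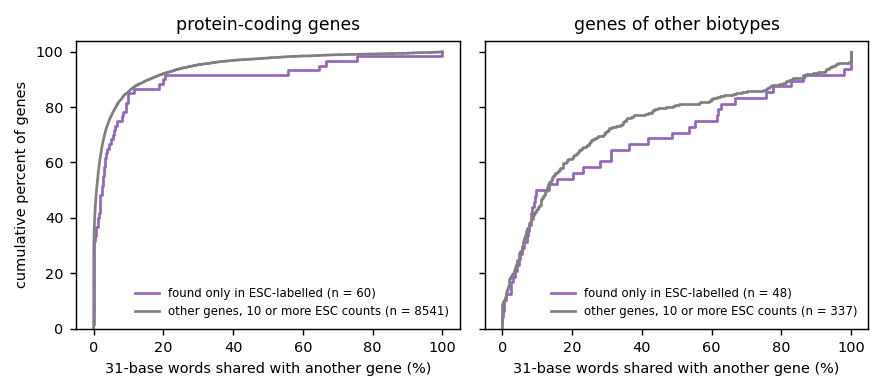
Cumulative percent of genes by the share of their 31-base words that is also found in another gene, for coding genes (left) and other biotypes (right). Purple lines are the genes found in the library labelled ESC and at 0 in both MEF libraries (60 and 48), and grey lines the other genes with 10 or more ESC counts (8541 and 337). At least 50% of the words are shared in 8.33% and 29.2% of the former and in 2.25% and 19.3% of the latter.

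Coding genes of the set were shorter and richer in GC than other coding genes with 10 or more ESC counts, with a median length of 1888 against 2494 bases and a median GC content of 53.3% against 50.9%. The RefSeq table of promoters (GRCm38.p6) held 41 windows of 38 of these 60 genes, of which the 250 bases before the start were read. The median window had 4 CpG dinucleotides, against 16 in 8759 windows of other coding genes with 10 or more ESC counts and 5 in 11012 windows of coding genes with fewer counts. Windows with at most 5 CpG made up 58.5%, against 12.9% and 54.0%. By this measure the promoters were closer to those of coding genes with fewer than 10 ESC counts. Apart from symbols left out, the other coding genes with 10 or more ESC counts all had MEF counts by the rule. The part of the rule in these differences was not tested. The octamer ATGCAAAT, the classical element bound by POU factors, was in 0 of 41 windows on either strand, against 1.12% and 1.72% of the other windows and 1.60% of all 32851. At such low shares 41 windows are too few to tell 0 from the background. The TATA element TATAAA was in 5 of 41 windows (12.2%) on either strand, against 5.80%, 15.3% and 12.4% in the same order.

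Windows are shown for 3 of the genes with TATAAA, in which the element ended 24 to 27 bases before the start. In Fam25c, which is not shown, it ended 23 bases before the start. The window of Cnfn, with 3 CpG and no match to either motif, is given for comparison. Near its end the Cnfn window holds tataag, which differs from TATAAA in the last letter. Capitals mark TATAAA. The windows are chr7:140763569-140763818 (plus strand) for Cyp2e1, chr17:35067075-35067324 (plus strand) for Ly6g6c, chr16:65520262-65520511 (plus strand) for Pou1f1 and chr7:25369725-25369974 (minus strand) for Cnfn, on GRCm38.p6 and printed 5′ to 3′ on the strand of the gene.
Cyp2e1: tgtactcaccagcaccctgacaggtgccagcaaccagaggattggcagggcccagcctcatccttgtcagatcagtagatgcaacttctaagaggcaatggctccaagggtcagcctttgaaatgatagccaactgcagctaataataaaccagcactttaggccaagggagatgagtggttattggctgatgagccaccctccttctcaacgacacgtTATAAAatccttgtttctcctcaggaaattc
Ly6g6c: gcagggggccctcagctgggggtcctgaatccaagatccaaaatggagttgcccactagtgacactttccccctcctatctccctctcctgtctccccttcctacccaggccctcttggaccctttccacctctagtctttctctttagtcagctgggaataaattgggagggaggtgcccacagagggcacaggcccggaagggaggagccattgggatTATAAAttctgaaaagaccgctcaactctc
Pou1f1: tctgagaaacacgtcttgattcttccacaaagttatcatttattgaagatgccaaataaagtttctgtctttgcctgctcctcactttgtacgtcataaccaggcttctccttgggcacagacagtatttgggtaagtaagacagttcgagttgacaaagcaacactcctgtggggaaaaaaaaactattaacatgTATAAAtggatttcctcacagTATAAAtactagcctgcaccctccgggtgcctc
Cnfn: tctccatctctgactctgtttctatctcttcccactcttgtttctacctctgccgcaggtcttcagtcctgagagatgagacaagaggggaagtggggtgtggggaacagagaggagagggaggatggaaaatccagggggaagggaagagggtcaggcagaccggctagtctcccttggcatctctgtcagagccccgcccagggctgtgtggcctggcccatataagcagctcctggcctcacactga
Pou1f1 held the element at 2 places, of which the nearer ended 27 bases before the start. In Rpgrip1 the match was on the opposite strand, 129 bases before the start. A match of letters is a description and does not show that a factor binds there.

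At the threshold itself, 12 genes had 10 counts, 8 of them coding, with TPM from 1.38 to 7.18. Among genes at 0 in both MEF libraries, 13 had 9 counts, 6 of them coding, with TPM from 0.68 to 7.60. The latter include Gm37017, Gm28512, Pitpnm2os2, Gm15513 and the coding gene Asphd1. The TPM ranges on both sides of the threshold thus overlapped. The 7 genes that met the count rule and were left out by their symbols would make 120 genes, or 0.674% of the genes with a count.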

How the data were processed

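RNA of OG2 MEFs, ICR MEFs and R1 ESCs (1 library each) was sequenced. The authors trimmed reads with TRIMMOMATIC, aligned them with bowtie2 and quantified genes with RSEM. The annotation release is unsure, since some identifiers appear too high for the stated one. The deposited tables hold an expected count per gene (reads as RSEM estimates them), TPM (a length-scaled level with the same total in every library) and FPKM (not used here). The GC-content normalization in the study's methods was taken as a later step, so the deposited expected counts were used as they stand.

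Expected counts were rounded and divided by their sum to give CPM. GENCODE M21 (GRCm38) gave symbols, biotypes and positions for 28756 of 29267 genes (98.3%), and its transcripts gave the 31-base words, both strands read as one. Intervals came from scipy 1.17.1, and tables were handled in pandas 2.3.3 and numpy 2.4.6 under Python 3.11.15. TMM factors (edgeR 4.0.16) and median-of-ratios size factors (DESeq2 1.42.0, R 4.3.3) served as alternative scalings. No test was run, since the rule uses the contrast and the ESC side has 1 library, and p-values are not given. The script that applies the rule was tested on simulated data.

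The genes, the 23 marker lists and the 21 classes were chosen with earlier results of these data known. The genes that could be named were the 25 highest by count and by TPM, those in a list, the 4 highest of each class, those at 10 counts, up to 5 at 9 counts, and for a list up to 4 other markers. Other genes in the text, including the textbook grouping and the overlapped genes, were chosen after their values had been seen.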

Additional observations from a re-analysis of the deposited data

How the results depend on the processing

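The number of genes depended on the thresholds. With a minimum of 5, 20 or 50 ESC counts it was 202, 59 and 24 in place of 113, the coding genes were 113, 29 and 12 in place of 60, and the share of ESC counts was 0.361%, 0.285% and 0.225% in place of 0.326%. Genes in a marker list fell from 15 to 7 at 20 counts and 3 at 50. With at most 1 count allowed in each MEF library there were 195 genes, 114 of them coding, with 0.514% of the counts. Without genes whose ESC count was not whole there were 43 genes, 33 of them coding (76.7%), with 0.122%. A deposited TPM of 10 or more in place of the count gave 57 genes, 25 of them coding, 7 in a list, with 0.263%, and 46 of the 57 are among the 113. Across these and the following settings the coding share ran from 43.9% to 76.7%.

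With 1 MEF library left out there were 163 to 185 genes, 88 to 105 of them coding, 18 to 19 in a list, with 0.450% to 0.517% of the counts, and the median fold bound was 17.8 to 19.98. The value of 185 is without ICR MEFs and that of 163 without OG2 MEFs. Size factors moved the median fold bound from 37.8 to 59.1, whereas TMM gave 51.6. With only the 12726 genes that had 10 or more counts in at least 1 library, 0.888% met the rule. After the data had been seen, genes that share at least 50% of their words (0.255% of the counts left) or whose exons overlap another gene (0.203% left) were taken out, which kept 94 and 81 genes. Without rounding there were 106 genes, 55 of them coding. Other values moved by less than 1.5 times or stayed within their interval. No paired analysis was possible because replicate numbers are not shared by label and a single ESC library leaves nothing to pair. Depth limits the set, since a gene at 0 in MEFs may lie at up to 0.308 CPM over both libraries.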

Other observations

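A further 110 genes had 10 or more counts in the ESC library and 1 or 2 counts over both MEF libraries, and so narrowly missed the rule. They were chosen after their values had been seen. The highest was Adap1, a GTPase-activating protein for Arf6 known from brain, with 402 counts in the ESC library and 1 in each MEF library. Wfdc2, a secreted protein of glandular and airway epithelium, had 330 counts, with 0 in OG2 MEFs and 2 in ICR MEFs. The nucleoside transporter Slc28a3 had 163 counts, with 2 and 0 in MEFs, and Mal, a membrane protein of epithelia and myelin, had 153, with 0 and 2. Tyr, the tyrosinase of pigment cells, had 113 counts, with 0 in OG2 MEFs and 1 in ICR MEFs. The genes named here are best known from unlike tissues.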
